A study of Mus musculus with 8 samples.

Results

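Leukocyte lineage markers are genes that are read mainly in 1 kind of white blood cell, and their RNA in a piece of tumour is used as a gauge of the immune cells within it. The set comprised 56 genes chosen by name, with 12 of T cells, 6 of natural killer (NK) and cytotoxic cells, 9 of B cells, 18 of macrophages and 11 of neutrophils. They were measured by 72 of the 39429 probes of a mouse array, and 52 of them were bright enough to enter the fit over 25535 genes. Tumours arose spontaneously in the ovaries of female C57BL/6J TgMISIIR-TAg mice that were Nedd9-null (4 mice) or Nedd9-WT (4 mice). In both genotypes the promoter of Amhr2 (also called MISIIR, the receptor for Müllerian inhibiting substance) drove the large T antigen of SV40, so every tumour carried this oncogene. No mouse received a drug, each array held 1 tumour, and the ages and the exons removed from the null allele were not given in the sources used here. The labels differ on tumour size, since the overall burden is put under 2000 mm3 in one place, while in another the mice were killed after a mass of 2000 mm3 was reached.

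T cells recognise antigen through a receptor whose CD3 chains carry the signal inwards, and B cells do the same through an antibody held by the chains CD79A and CD79B. NK cells and cytotoxic T cells kill with perforin and granzymes. Macrophages depend on the receptor CSF1R and make the C1q chains of complement, and neutrophils carry the calcium-binding pair S100A8 and S100A9 with antimicrobial granule proteins.

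Levels are on a log2 scale, as the background-subtracted signal relative to the 75th percentile of its array, so that a value below 0 lies under that percentile. Values are listed for mice 1 to 4 of each genotype, means carry the SD with n = 4, and a difference is the Nedd9-null mean minus the Nedd9-WT mean, with limma's standard error (SE). Levels of different genes come from different probes and are not set against each other. In RNA of whole tumour pieces, fewer cells of a type and less RNA per cell cannot be told apart. Arrays of the 2 genotypes were on separate slides, 1 per genotype, and slide and genotype cannot be told apart either.

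Nedd9 was −3.23 ± 0.86 in Nedd9-null tumours and 1.28 ± 0.42 in Nedd9-WT tumours (difference −4.51, SE 0.44, limma adjusted p = 0.0281). Nedd9-null 1 stood apart from its group over all genes: its array correlated at 0.886 to 0.920 with those of Nedd9-null 2 to 4 and at 0.938 to 0.973 with the Nedd9-WT arrays, and 84.6% of its probes were well above background, the highest share of the 8. The lowest share, 72.9%, was that of Nedd9-WT 2. Of the 56 markers, 51 to 54 were well above background on the Nedd9-null arrays, against 43 on the array of Nedd9-WT 2 and 47 to 52 on the other Nedd9-WT arrays. Because Nedd9-null 1 stood apart, the counts of each lineage and immune list, and most of their medians, are also given without it.

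With all 8 tumours, 0 of the 52 markers differed between the genotypes at a limma adjusted p under 0.05, where 0.0666% of all genes did (0.0587% higher and 0.00783% lower). At an unadjusted p under 0.05 there were 4 markers (Hdc, Camp, Blk and Cd8a), against 23.9% of all genes. For 0 of the 52 markers did the Nedd9-null values all lie above or all lie below the Nedd9-WT values, a separation seen in 12.7% of all genes (7.16% with Nedd9-null above and 5.58% with Nedd9-null below). The difference was positive for 33 markers and negative for 19, with a median of 0.13, against a median of 0.03 over all genes, of which 52.2% were positive. Of the positive ones, Cd3g, Klrd1, Blk, Fcrla and Ly6g were bright enough to be kept on the Nedd9-null arrays alone. That rule of entry favours a positive sign, so counts and lineage medians that include these genes are no support for a direction. The SD within a genotype had a median of 0.91 over the markers and 0.43 over all genes, so the values of the markers spread more than those of the typical gene. Some markers were dim, and the part of dim signal in this spread was not tested.

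**Figure D1:**
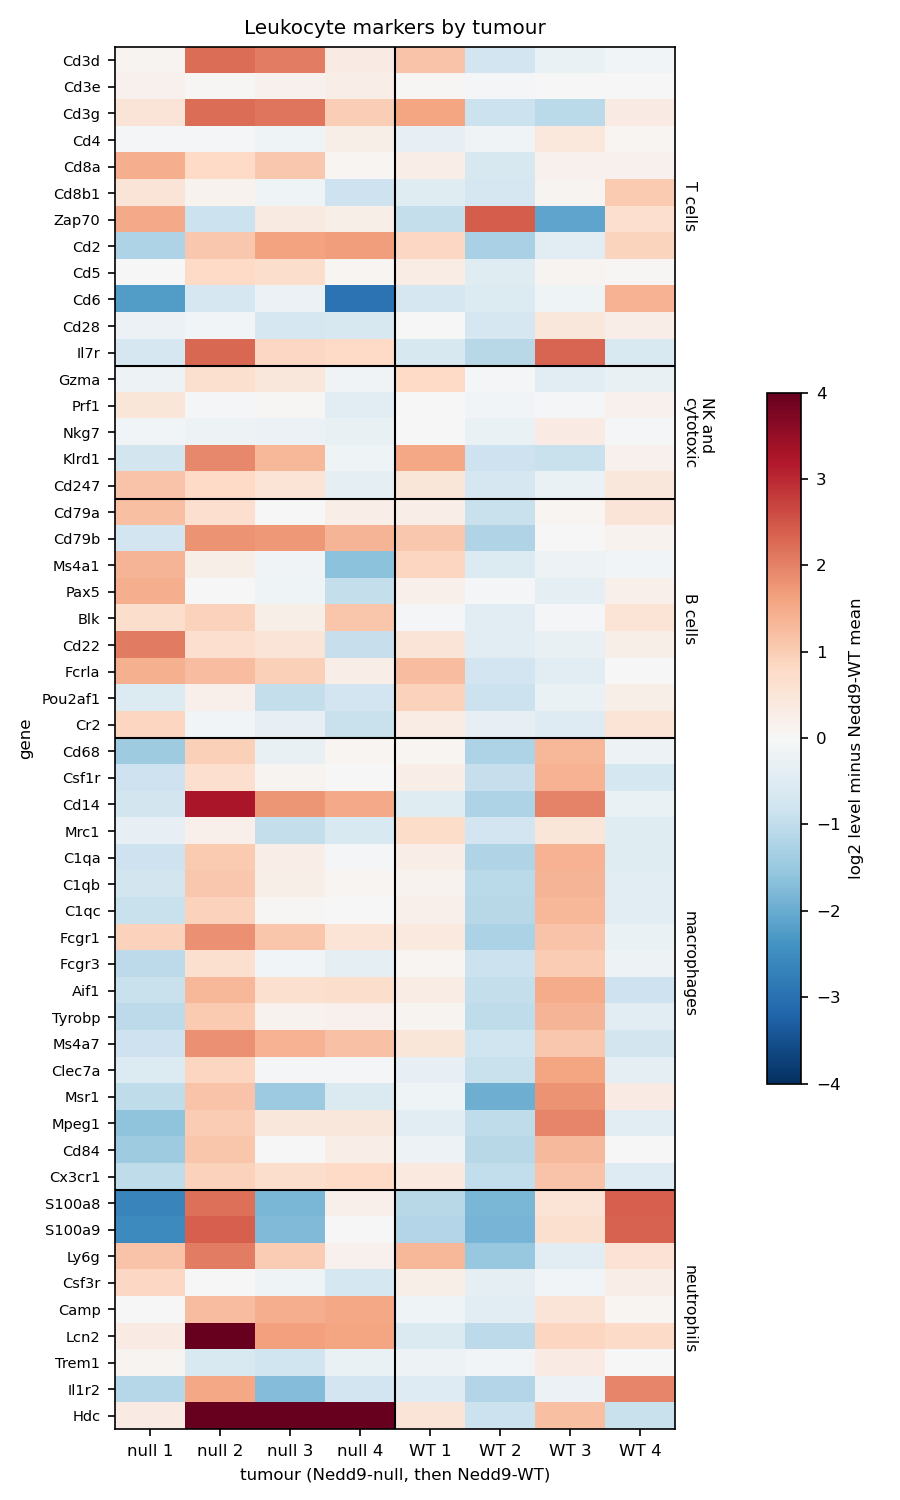
Heat map of the 52 tested markers (down the page, by lineage) in 4 Nedd9-null and 4 Nedd9-WT tumours (across); colour is the log2 level minus the gene's Nedd9-WT mean, and colours end at 4 and −4. Columns rather than genotypes stand out: macrophage genes are high in Nedd9-null 2 and Nedd9-WT 3 and low in Nedd9-null 1 and Nedd9-WT 2.

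The lineages were summarised per tumour as the median, over their tested markers, of the level minus that gene's Nedd9-WT mean. The T cell median was 0.06, 0.47, 0.54 and 0.23 in Nedd9-null tumours, against 0.02, −0.66, 0.06 and 0.22 in Nedd9-WT tumours. The NK and cytotoxic median was −0.10, 0.64, 0.45 and −0.30 in Nedd9-null tumours, against 0.48, −0.26, −0.27 and 0.17 in Nedd9-WT tumours. In both lineages the genotypes overlapped, and the lowest T cell median was that of Nedd9-WT 2.

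The B cell median was 1.22, 0.68, −0.02 and −0.75 in Nedd9-null tumours, against 0.50, −0.55, −0.27 and 0.23 in Nedd9-WT tumours. The 2 ends of this order, Nedd9-null 1 and Nedd9-null 4, belonged to the same genotype. The macrophage median was −0.89, 1.03, 0.15 and 0.07 in Nedd9-null tumours, against 0.15, −1.02, 1.35 and −0.42 in Nedd9-WT tumours. The neutrophil median was 0.10, 2.03, −0.18 and 0.18 in Nedd9-null tumours, against −0.22, −1.04, 0.52 and 0.59 in Nedd9-WT tumours. Each genotype thus held both a macrophage-high and a macrophage-low tumour, and the neutrophil values overlapped, with Nedd9-null 2 highest and Nedd9-WT 2 lowest.

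**Figure D2:**
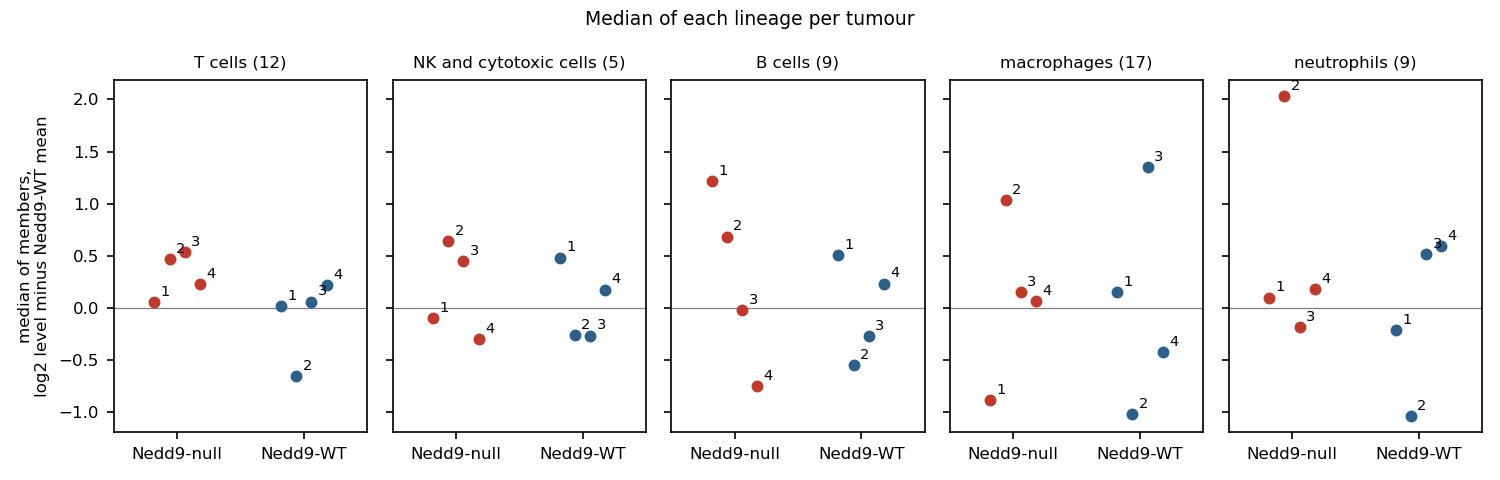
Median of each lineage's tested markers (number in the panel title) per tumour, as log2 level minus the Nedd9-WT mean; each point is 1 tumour, numbered, with Nedd9-null left of Nedd9-WT. The 2 groups of 4 points overlap in all 5 panels; macrophage medians run from −0.89 to 1.03 in Nedd9-null tumours and from −1.02 to 1.35 in Nedd9-WT tumours.

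Macrophage genes gave the most uniform pattern. All 17 tested genes had their highest value in Nedd9-WT 3 (13 genes), Nedd9-null 2 (3) or Nedd9-WT 1 (1), and their lowest in Nedd9-WT 2 (9), Nedd9-null 1 (7) or Nedd9-null 3 (1). Over all genes, 18.5% had their highest value in Nedd9-WT 3 and 18% their lowest in Nedd9-WT 2. Another 25.9% had their highest value in Nedd9-null 1, where no macrophage gene did by its brightest probe. A second Cd84 probe was highest in Nedd9-null 1 (−2.60). After each probe was centred on its own mean, the Cd84 probes lay up to 2.22 apart. For Csf1r, Msr1, Cx3cr1 and Mpeg1 the greatest gap between probes was 1.186, 0.755, 0.282 and 0.225. Tyrobp encodes DAP12, an adaptor that passes on signals from receptors of myeloid and NK cells, and its level was 0.21, 2.30, 1.41 and 1.44 in Nedd9-null tumours, against 1.37, 0.24, 2.63 and 0.81 in Nedd9-WT tumours. Csf1r, the receptor for the macrophage growth factor CSF1, was 1.65, 3.15, 2.61 and 2.48 in Nedd9-null tumours, against 2.74, 1.55, 3.88 and 1.77 in Nedd9-WT tumours. After each gene was centred on its own mean, the 2 genes were never further apart than 0.33 in any tumour.

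The 3 chains of C1q, the recognition unit of the classical complement pathway, moved as 1, with centred values never more than 0.16 apart. C1qb was 0.27, 2.08, 1.24 and 1.07 in Nedd9-null tumours, against 1.16, −0.07, 2.36 and 0.59 in Nedd9-WT tumours (difference 0.16, SE 0.57, limma adjusted p = 0.895). C1qa differed by 0.10 (SE 0.60, limma adjusted p = 0.938) and C1qc by 0.02 (SE 0.57, limma adjusted p = 0.986). The gap between the 2 extreme Nedd9-WT tumours, 2 and 3, was larger than the genotype difference of each chain. Probe sequences are shown for 2 macrophage genes as examples of coding probes: that of C1qb (chr4:136436578-136436637, mm9, minus strand) and that of Tyrobp (chr7:31200651-31202378, mm9, plus strand, across an exon junction), in which capitals mark codons for tyrosine, any 2 amino acids and leucine, as found in an immunoreceptor tyrosine-based activation motif (ITAM).
C1qb: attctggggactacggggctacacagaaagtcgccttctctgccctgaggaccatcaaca
Tyrobp: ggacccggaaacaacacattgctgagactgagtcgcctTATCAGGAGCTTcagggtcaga

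The macrophage genes with the smallest p-values were Fcgr1, Cd14, Ms4a7 and Mrc1, and each had overlapping genotypes. Fcgr1, the high-affinity receptor for IgG, was −2.84, −1.93, −2.65 and −3.22 in Nedd9-null tumours, against −3.36, −5.02, −2.63 and −4.01 in Nedd9-WT tumours (difference 1.09, SE 0.52, limma adjusted p = 0.245). Cd14, a co-receptor for bacterial lipopolysaccharide, was −2.36, 1.63, 0.15 and −0.12 in Nedd9-null tumours, against −2.11, −2.86, 0.34 and −1.89 in Nedd9-WT tumours (difference 1.45, SE 0.95, limma adjusted p = 0.390). The tumours Nedd9-null 2 to 4 and Nedd9-WT 3 were thus high for Cd14, and the other 4 tumours were low.

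Ms4a7, a membrane protein of tissue macrophages, was −0.75, 1.89, 1.45 and 1.23 in Nedd9-null tumours, against 0.53, −0.75, 1.13 and −0.66 in Nedd9-WT tumours (difference 0.89, SE 0.66, limma adjusted p = 0.453). Mrc1, the mannose receptor, was −1.35, −0.82, −1.98 and −1.61 in Nedd9-null tumours, against −0.27, −1.78, −0.52 and −1.48 in Nedd9-WT tumours (difference −0.43, SE 0.40, limma adjusted p = 0.563). Mrc1 was the 1 macrophage gene that was highest in Nedd9-WT 1. Across all 17 genes the differences ran from −0.47 (Msr1, a scavenger receptor) to 1.45 (Cd14), with a median of 0.07, 11 positive and 6 negative. Without Nedd9-null 1 the median was 0.45 and 15 of 17 were positive. Over all genes the median was then −0.07, and 11456 of 25535 were positive. In that fit 0 of the 17 macrophage genes passed the limma threshold, where 18.7% of all genes did. Cd163, a scavenger receptor for haemoglobin, was well above background on the arrays of Nedd9-null 1 and Nedd9-WT 1 alone and was not tested.

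Neutrophil genes varied most within a genotype (median SD 1.40), and they did not vary as 1 group. Their median difference was −0.02 over 9 tested, and 0 passed the limma threshold. Without Nedd9-null 1 the median was 0.22 and 2 passed as higher, where 10.3% of all genes did. S100a8 was −4.67, 0.17, −3.86 and −1.85 in Nedd9-null tumours, against −3.14, −3.88, −1.48 and 0.35 in Nedd9-WT tumours (difference −0.51, SE 1.26, limma adjusted p = 0.841). S100a9, its partner in calprotectin, followed it to within 0.19 in every tumour after centring, with a difference of −0.47 (SE 1.27, limma adjusted p = 0.859). Both genes were high in 1 tumour of each genotype, Nedd9-null 2 and Nedd9-WT 4. Il1r2, a decoy receptor for interleukin-1, was −6.37, −3.67, −6.95 and −6.00 in Nedd9-null tumours, against −5.76, −6.40, −5.48 and −3.28 in Nedd9-WT tumours, and so was highest in the same 2 tumours. Of the 6 other tested neutrophil genes, 0 had their highest value in Nedd9-WT 4, and Hdc had its lowest value there. The median of 4 tested red blood cell genes, relative to the Nedd9-WT mean, was −3.96, −1.34, −2.34 and −1.11 in Nedd9-null tumours, against −2.47, −0.82, 1.01 and 2.23 in Nedd9-WT tumours. Like S100a8, this median was lowest in Nedd9-null 1 and highest in Nedd9-WT 4. In Nedd9-null 2, where S100a8 and S100a9 were high, it was lower (−1.34) than in Nedd9-null 4 (−1.11) and Nedd9-WT 2 (−0.82). The part of blood in these levels was not tested. The S100a8 probe (chr3:90473778-90473837, mm9, plus strand) lies in coding sequence and is shown because the order of this gene is taken up again beside those of Hdc and Csf3r.
S100a8: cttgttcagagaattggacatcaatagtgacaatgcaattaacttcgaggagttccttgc

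The 2 neutrophil genes too faint to be tested had signal in Nedd9-null 2 and Nedd9-WT 4. Ngp, neutrophilic granule protein, was well above background on the arrays of Nedd9-null 2, Nedd9-null 4 and Nedd9-WT 4. Trem3, a myeloid receptor, was well above background on those of Nedd9-null 2 and Nedd9-WT 4. Neither gene was bright enough on enough arrays to be tested. Ly6g, the surface protein by which mouse neutrophils are stained, was −6.76, −5.87, −6.89 and −7.72 in Nedd9-null tumours, against −6.56, −9.41, −8.33 and −7.31 in Nedd9-WT tumours (difference 1.09, SE 0.65, limma adjusted p = 0.343). It was highest in Nedd9-null 2, but on 2 of 4 Nedd9-WT arrays it was not well above background.

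A second pattern was shared by Hdc, Camp and Lcn2, which were high in Nedd9-null 2 to 4 and not in Nedd9-null 1. Hdc, histidine decarboxylase, makes histamine and is known from granulocytes, mast cells and basophils, and its level was −0.63, 3.26, 4.11 and 3.99 in Nedd9-null tumours, against −0.44, −1.80, 0.26 and −1.84 in Nedd9-WT tumours. Its mean was 2.68 ± 2.24 in Nedd9-null tumours and −0.96 ± 1.04 in Nedd9-WT tumours, a 12.5-fold difference that did not pass the test (log2 3.64, SE 1.09, limma adjusted p = 0.115). Only the value of Nedd9-null 1 lay within the Nedd9-WT range. Camp, the precursor of the antimicrobial peptide cathelicidin, was −3.46, −2.21, −1.99 and −1.89 in Nedd9-null tumours, against −3.63, −3.88, −2.93 and −3.36 in Nedd9-WT tumours (difference 1.06, SE 0.38, limma adjusted p = 0.154). Lcn2, the iron-siderophore binder lipocalin-2, which epithelia also make, was −0.75, 4.29, 0.56 and 0.51 in Nedd9-null tumours, against −1.64, −2.11, −0.21 and −0.32 in Nedd9-WT tumours (difference 2.22, SE 1.05, limma adjusted p = 0.243). Nedd9-null 2 lay far above the rest for Lcn2, and without it the difference was 1.17 (limma adjusted p = 0.362).

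Without Nedd9-null 1, Hdc (difference 4.74, limma adjusted p = 0.00196) and Camp (1.42, limma adjusted p = 0.00867) passed the threshold, which makes 2 of 52 markers, and both were higher. In that fit 18.7% of all genes passed, 10.3% as higher and 8.36% as lower. The share of the 52 markers was therefore under the background. Both genes were of the neutrophil list, which makes 2 of its 9 tested genes. Then 6 markers had every Nedd9-null value above every Nedd9-WT value (Camp, Cd2, Cd79b, Hdc, Lcn2 and Ms4a7), and Trem1 had every value below, against 16.4% of all genes above, 18.1% below and 34.4% either way. Genes of other cell types also set these 3 tumours apart. The median of 9 tested genes of ciliated cells, relative to the Nedd9-WT mean, was 1.70, 6.78, 7.31 and 7.46 in Nedd9-null tumours, against 2.23, −0.54, −0.87 and −0.39 in Nedd9-WT tumours. The median of 10 epithelial genes was −0.92, 2.30, 2.23 and 1.36 in Nedd9-null tumours, against −0.16, 0.01, 0.03 and −0.01 in Nedd9-WT tumours. The median of 8 genes of ovarian follicle and steroidogenic cells was −0.71, −3.09, −5.90 and −5.72 in Nedd9-null tumours, against −0.29, 0.42, 0.04 and −0.31 in Nedd9-WT tumours. Ciliated and epithelial genes were thus high, and follicle genes low, where Hdc, Camp and Lcn2 were high, and the part of those cells in the levels of the 3 markers was not tested. S100a8 and S100a9 were low in Nedd9-null 3, where Hdc had its highest value.

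**Figure D3:**
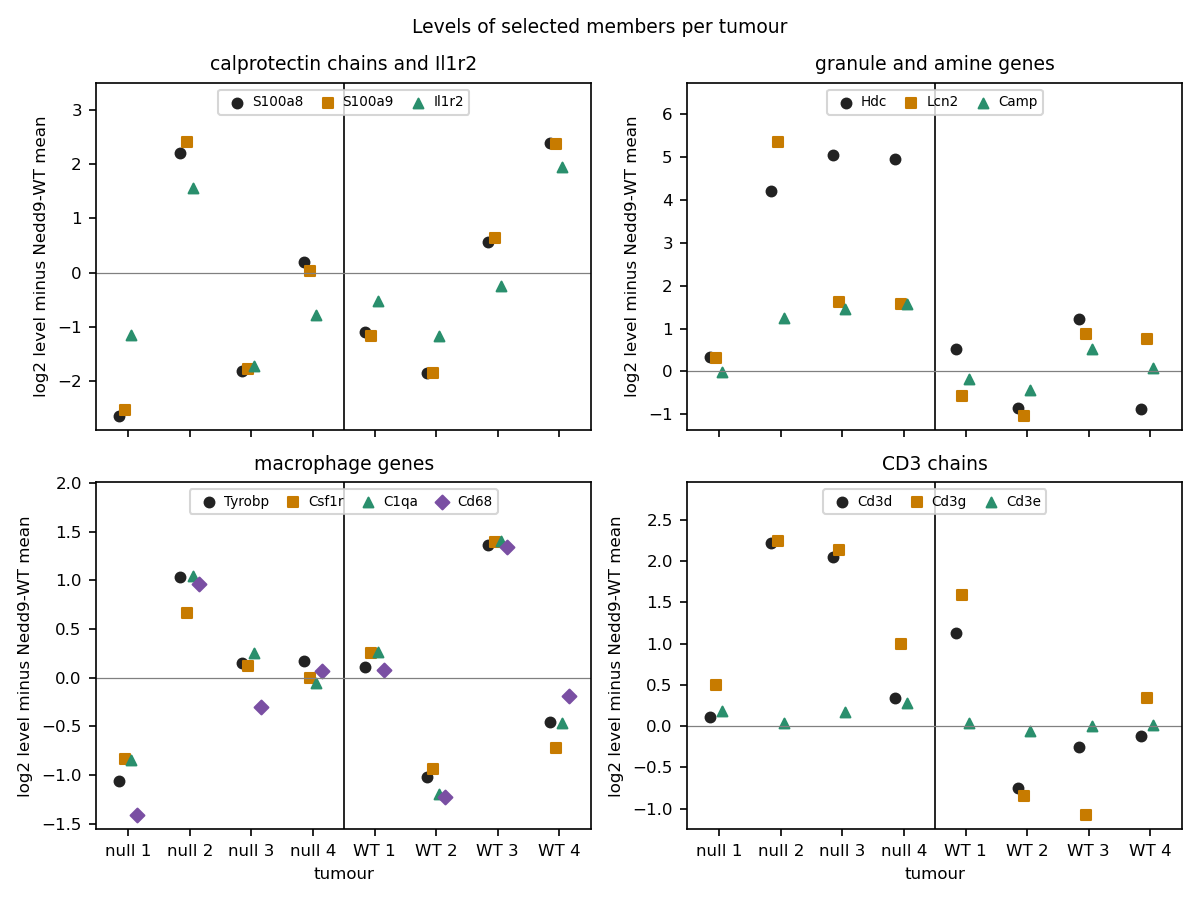
Levels of selected markers per tumour, as log2 level minus the Nedd9-WT mean, with Nedd9-null tumours left of the line and Nedd9-WT tumours right of it; each point is 1 gene in 1 tumour. S100a8, S100a9 and Il1r2 are highest in Nedd9-null 2 and Nedd9-WT 4, Hdc and Camp in Nedd9-null 2 to 4, and the macrophage genes in Nedd9-WT 3; Cd3e stays near 0 where Cd3d and Cd3g spread over more than 2 log2 units.

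In 3 cases markers were read by probes with repeated sequence, which was noticed after their values had been seen. The Csf3r probe (chr4:125721478-125721537, mm9, plus strand) ends in a stretch of 15 bases, marked by capitals, that is known from the mouse B1 repeat family. The Trem1 probe (chr17:48385849-48385908, mm9, plus strand) holds a run of the triplet TTG, and the Cd22 probe (chr7:31651249-31651308, mm9, minus strand) a run of the unit AACC, both in capitals. For each, 30 of its bases are shown, and each stretch was found in no probe of another marker.
Csf3r: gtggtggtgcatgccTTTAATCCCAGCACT
Trem1: TTGTTGTTGTTGTTGTTGTTGTTGTTGTTG
Cd22: gaaaAACCAACCAACCAACCaaacaaaaaa

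The probes were searched on both strands for TTTAATCCCAGCACT, for TTGTTGTTGTTGTTG and for AACCAACCAACC, which 8, 17 and 13 of 39402 probes held (0.0203%, 0.0431% and 0.033%). Csf3r encodes the receptor for granulocyte colony-stimulating factor. Its level was 7.005, 6.16, 5.99 and 5.47 in Nedd9-null tumours, against 6.40, 5.80, 6.05 and 6.44 in Nedd9-WT tumours (difference −0.02, SE 0.33, limma adjusted p = 0.982). Its centred values lay up to 3.22 from those of S100a8, but within 0.15 in every tumour of those of Gm13241, a predicted gene whose probe holds the same stretch on the same strand. The other 2 probes of that kind came within 0.48 and 2.34.

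Trem1, a receptor that amplifies inflammation in neutrophils and monocytes, was −0.52, −1.23, −1.40 and −0.90 in Nedd9-null tumours, against −0.83, −0.74, −0.30 and −0.60 in Nedd9-WT tumours (difference −0.40, SE 0.23, limma adjusted p = 0.344). Of 9 other probes with its triplet run on the same strand, the nearest, for Msl1, stayed within 0.12 of it. The median greatest gap was 0.34 and the largest 1.74. Cd22, an inhibitory receptor of B cells, was 1.02, −0.38, −0.55 and −1.996 in Nedd9-null tumours, against −0.56, −1.51, −1.35 and −0.83 in Nedd9-WT tumours (difference 0.59, SE 0.59, limma adjusted p = 0.586). For 6 other probes with its repeat on the same strand the greatest gaps ran from 0.24 to 2.37, and all 6 were above their own mean in Nedd9-null 1, as Cd22 was. Whether these 3 probes also bind other transcripts was not tested, nor how many probes without the stretches lie as near to them.

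**Figure D4:**
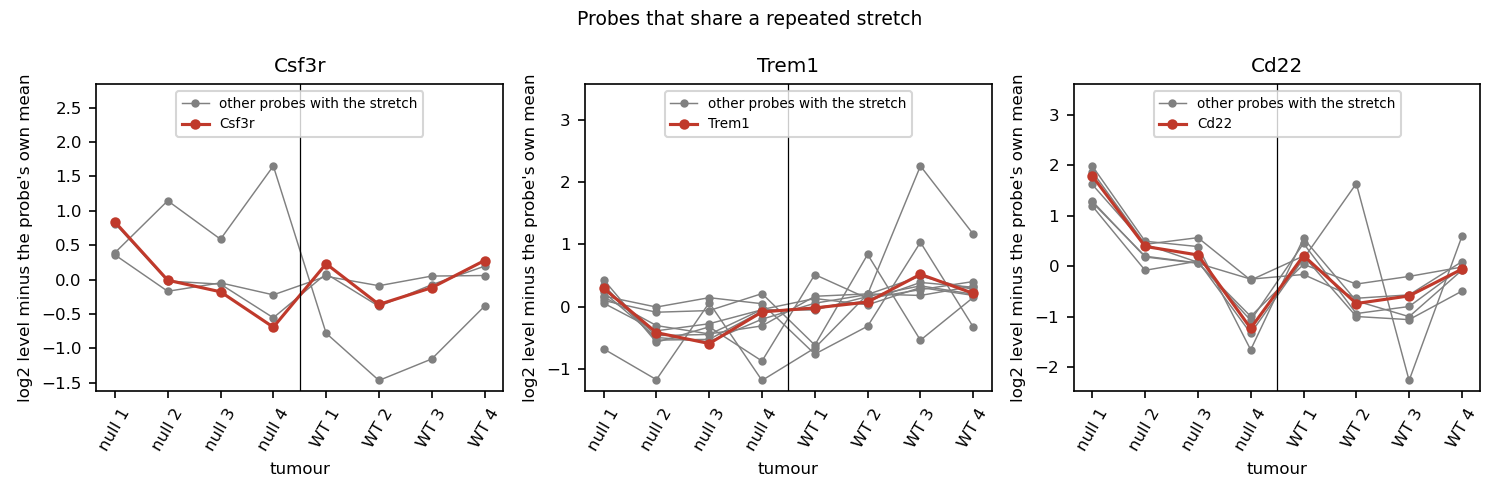
Log2 level minus the probe's own mean over 8 tumours for Csf3r, Trem1 and Cd22 (red) and for the 3, 9 and 6 other probes with the same repeated stretch on the same strand (grey), Nedd9-null tumours left of the line. The nearest grey line stays within 0.15 of Csf3r, 0.12 of Trem1 and 0.24 of Cd22 in every tumour, and the farthest departs by up to 2.34, 1.74 and 2.37.

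T cell genes had a median difference of 0.35, with 8 positive and 4 negative, and 0 of 12 passed the limma threshold. Without Nedd9-null 1 the median was 0.34, and 0 passed, where 18.7% of all genes did in that fit. Cd3d and Cd3g encode the delta and gamma chains of CD3. Cd3d was −6.38, −4.27, −4.44 and −6.15 in Nedd9-null tumours, against −5.36, −7.25, −6.75 and −6.61 in Nedd9-WT tumours (difference 1.18, SE 0.61, limma adjusted p = 0.280). Cd3g was −7.65, −5.91, −6.01 and −7.16 in Nedd9-null tumours, against −6.56, −9.00, −9.23 and −7.81 in Nedd9-WT tumours (difference 1.47, SE 0.67, limma adjusted p = 0.228). Both were highest in Nedd9-null 2 and 3, with Nedd9-WT 1 next, and the genotypes overlapped. Cd3g was well above background on 3 Nedd9-null arrays and 1 Nedd9-WT array, so most of its Nedd9-WT values are near background.

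Cd3e, the epsilon chain of the same complex, was −0.86, −0.998, −0.87 and −0.76 in Nedd9-null tumours, against −0.99, −1.10, −1.03 and −1.03 in Nedd9-WT tumours (difference 0.17, SE 0.13, limma adjusted p = 0.483). Its centred values departed from those of Cd3d by up to 1.68, while Cd3d and Cd3g departed from each other by up to 0.97. The chains of 1 receptor thus did not give 1 pattern on these probes. The Cd3d probe (chr9:44794171-44794402, mm9, plus strand, across an exon junction) covers the 2 tyrosines of the ITAM of its chain, and the codons from each tyrosine to its leucine are in capitals.
Cd3d: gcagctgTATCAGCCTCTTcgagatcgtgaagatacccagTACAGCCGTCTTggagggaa

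Cd8a, the alpha chain of the CD8 co-receptor, was −5.65, −6.31, −6.02 and −7.04 in Nedd9-null tumours, against −6.85, −7.75, −6.93 and −6.93 in Nedd9-WT tumours (difference 0.85, SE 0.34, limma adjusted p = 0.182). Of the Nedd9-null values, 3 exceeded all Nedd9-WT values, and Nedd9-null 4 lay among them. Cd8b1, its partner chain, differed by −0.09 (SE 0.44, limma adjusted p = 0.927). Cd6, a receptor for ALCAM, was −5.51, −3.95, −3.52 and −6.24 in Nedd9-null tumours, against −3.94, −3.84, −3.44 and −1.90 in Nedd9-WT tumours (difference −1.53, SE 0.71, limma adjusted p = 0.237). A second Cd6 probe differed by −0.06, and the 2 probes' centred values lay up to 2.60 apart.

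Zap70, the kinase that docks on phosphorylated CD3 chains, had the largest spread among T cell genes. It was −0.99, −3.35, −2.12 and −2.26 in Nedd9-null tumours, against −3.45, −0.08, −4.61 and −1.83 in Nedd9-WT tumours (difference 0.31, SE 0.97, limma adjusted p = 0.875). It was highest in Nedd9-WT 2, the tumour in which 7 of the 12 T cell genes were lowest, and its second probe stayed within 0.37 of the first after centring. Il7r, the interleukin-7 receptor, was −7.12, −4.14, −5.63 and −5.65 in Nedd9-null tumours, against −7.09, −7.54, −4.10 and −7.05 in Nedd9-WT tumours, so it was high in the 2 macrophage-high tumours. The other T cell genes, Cd2, Cd5 and Cd28, differed by 0.78, 0.39 and −0.41, with limma adjusted p of 0.575, 0.407 and 0.400.

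Cd4, the co-receptor of helper T cells, which some macrophages and dendritic cells carry too, had 2 probes of differing sign. The brighter, used in the fit, was −0.39, −0.38, −0.50 and −0.12 in Nedd9-null tumours, against −0.67, −0.49, 0.08 and −0.26 in Nedd9-WT tumours (difference −0.01, SE 0.20, limma adjusted p = 0.985). The other was −4.86, −5.43, −5.42 and −5.54 in Nedd9-null tumours, against −5.57, −5.83, −5.59 and −5.29 in Nedd9-WT tumours (difference 0.26). Both probes lie on the minus strand of chromosome 6 (mm9), the brighter at chr6:124814711-124814770 and the other at chr6:124817706-124817765. The last 30 bases of the brighter hold the polyadenylation signal AATAAA, in capitals, which marks the end of a transcript.
Cd4, brighter probe: acagaaaAATAAAggctataAATAAAatgc
Cd4, other probe: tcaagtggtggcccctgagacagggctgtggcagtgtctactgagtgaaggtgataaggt

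Genes of NK and cytotoxic cells had a median difference of 0.19, with 4 positive and 1 negative, and 0 of 5 passed the limma threshold. Without Nedd9-null 1 the median was 0.32, and 0 passed, where 18.7% of all genes did in that fit. Ncr1, the receptor NKp46 by which NK cells are defined, was not well above background on any of the 8 arrays and was not tested. Klrd1, the CD94 chain of NK receptors, was −8.19, −5.54, −6.14 and −7.65 in Nedd9-null tumours, against −5.93, −8.28, −8.36 and −7.28 in Nedd9-WT tumours (difference 0.58, SE 0.75, limma adjusted p = 0.677). Nedd9-null 2, Nedd9-null 3 and Nedd9-WT 1 had its 3 highest values, and these tumours were also the highest 3 for Cd3d and Cd3g. Klrd1 was well above background on 3 Nedd9-null and 2 Nedd9-WT arrays, so its lowest values are near background. Gzma, a granzyme, was −4.80, −3.95, −4.14 and −4.72 in Nedd9-null tumours, against −3.80, −4.63, −5.03 and −4.88 in Nedd9-WT tumours (difference 0.19, SE 0.33, limma adjusted p = 0.770), and its sign turned with other scalings. Its highest values came from the same 3 tumours. Prf1, perforin, differed by 0.01 (SE 0.22, limma adjusted p = 0.985).

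Nkg7, a granule protein of killer cells, was −0.96, −1.05, −1.09 and −1.17 in Nedd9-null tumours, against −0.88, −1.12, −0.53 and −0.93 in Nedd9-WT tumours by its brighter probe (difference −0.20, SE 0.17, limma adjusted p = 0.505). Its dimmer probe gave −9.07, −5.23, −4.71 and −6.65 in Nedd9-null tumours, against −6.61, −7.79, −7.80 and −7.81 in Nedd9-WT tumours (difference 1.09). The 3 highest tumours of the dimmer probe were Nedd9-null 3, Nedd9-null 2 and Nedd9-WT 1, as for Klrd1 and Gzma, whereas the brighter probe was nearly level. Nedd9-WT 1 (−6.61) was barely above Nedd9-null 4 (−6.65). The dimmer probe was well above background on 3 Nedd9-null and 2 Nedd9-WT arrays. Cd247 encodes the zeta chain of the T cell receptor complex, and its brighter probe gave −4.57, −4.93, −5.17 and −6.08 in Nedd9-null tumours, against −5.23, −6.39, −5.98 and −5.26 in Nedd9-WT tumours (difference 0.53, SE 0.40, limma adjusted p = 0.455). Its dimmer probe differed by −0.69, and 1 Nedd9-null and 3 Nedd9-WT arrays had it well above background. The dimmer probes of both genes are shown because they turned the sign. That of Nkg7 is at chr7:50693148-50693207 (mm9, plus strand), and that of Cd247 at chr1:167786567-167787585 (mm9, plus strand, across an exon junction), with tyrosine-to-leucine codons in capitals.
Nkg7, dimmer probe: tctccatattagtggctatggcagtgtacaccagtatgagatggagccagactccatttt
Cd247, dimmer probe: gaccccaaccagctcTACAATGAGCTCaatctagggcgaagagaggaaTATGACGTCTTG

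B cell genes had a median difference of 0.53, with 6 positive and 3 negative, and 0 of 9 passed the limma threshold. Without Nedd9-null 1 the median was 0.09, and 0 passed, where 18.7% of all genes did in that fit. With probes well above background on all 8 arrays, 6 B cell genes remained and their median was 0.02. In all, 6 of the 9 were highest in that tumour (Cd79a, Ms4a1, Pax5, Cd22, Fcrla and Cr2), as were 25.9% of all genes. Cd79a, which signals for the B cell receptor, was −5.08, −5.61, −6.31 and −6.04 in Nedd9-null tumours, against −6.03, −7.18, −6.20 and −5.77 in Nedd9-WT tumours (difference 0.53, SE 0.38, limma adjusted p = 0.432). Cd79b, its partner, was −4.44, −1.88, −1.94 and −2.32 in Nedd9-null tumours, against −2.61, −4.89, −3.68 and −3.55 in Nedd9-WT tumours (difference 1.04, SE 0.68, limma adjusted p = 0.393). The partners were at opposite ends in Nedd9-null 1, which had the highest Cd79a value and, after Nedd9-WT 2, the lowest Cd79b value.

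Blk, a SRC-family kinase of B cells, was −7.06, −6.83, −7.51 and −6.65 in Nedd9-null tumours, against −7.79, −8.17, −7.83 and −7.21 in Nedd9-WT tumours (difference 0.74, SE 0.27, limma adjusted p = 0.157). Nedd9-null 3 and Nedd9-WT 4 overlapped, and 1 Nedd9-WT array had Blk well above background. Fcrla, an Fc receptor-like protein, was −6.43, −6.61, −6.91 and −7.59 in Nedd9-null tumours, against −6.61, −8.62, −8.31 and −7.86 in Nedd9-WT tumours (difference 0.97, SE 0.46, limma adjusted p = 0.248), and it too was well above background on 1 Nedd9-WT array. Ms4a1, which encodes CD20, was −3.75, −4.88, −5.26 and −6.77 in Nedd9-null tumours, against −4.27, −5.66, −5.32 and −5.22 in Nedd9-WT tumours (difference −0.05, SE 0.62, limma adjusted p = 0.972). The Nedd9-null tumours thus held both its highest and its lowest value. Pax5, the factor that maintains B cell identity, Pou2af1, a co-activator, and Cr2, complement receptor 2, differed by 0.08, −0.51 and −0.12, with limma adjusted p of 0.940, 0.498 and 0.887. A second Cr2 probe differed by 0.69, so its sign was the opposite.

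**Figure D5:**
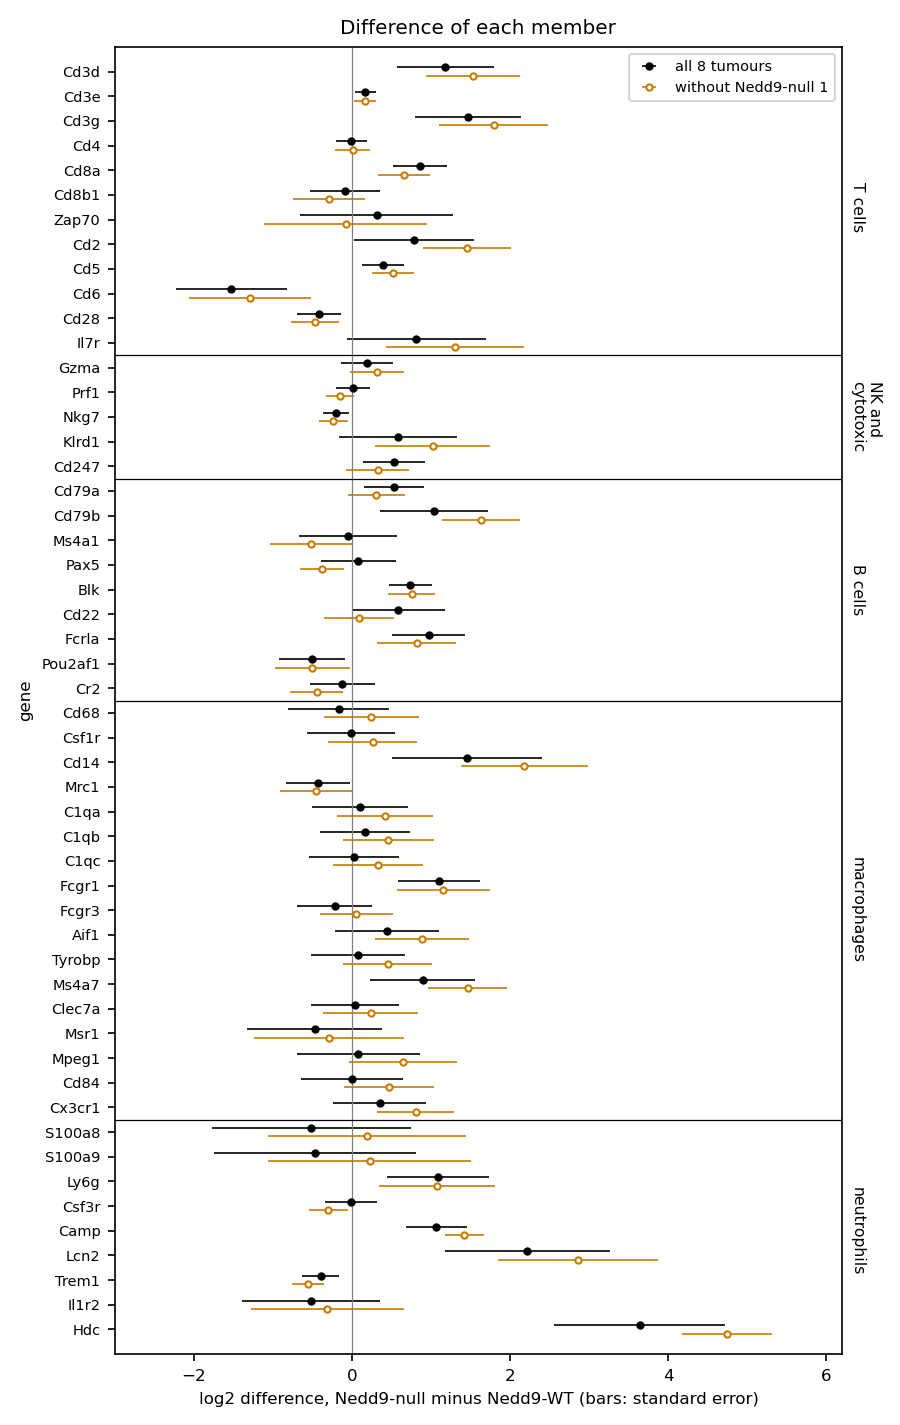
Difference of each tested marker, Nedd9-null minus Nedd9-WT, on the log2 scale with its standard error, with all 8 tumours (black) and without Nedd9-null 1 (orange, open). Differences run from −1.53 for Cd6 to 3.64 for Hdc, and Hdc has the largest one also without Nedd9-null 1, 4.74.

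Related gene lists were read in the same fit. Of 20 genes shared by most leukocytes, 0 passed the limma threshold and 2 had an unadjusted p under 0.05, against 23.9% of all genes. The median of the 20 genes per tumour was −0.88, 0.89, 0.01 and −0.22 in Nedd9-null tumours, against −0.05, −1.10, 1.02 and 0.03 in Nedd9-WT tumours. This order has the same high tumours (Nedd9-WT 3 and Nedd9-null 2) and the same low ones (Nedd9-WT 2 and Nedd9-null 1) as the macrophage genes. Without Nedd9-null 1 the median difference of the 20 genes was 0.22, against 0.05 with all 8 tumours. In that fit 1 of them passed, as lower, where 8.36% of all genes did. Against 23.9% of all genes, 2 of 14 tested genes of macrophage state had an unadjusted p under 0.05, and 0 passed. Among them Nos2, inducible nitric oxide synthase, was −1.92, −2.16, −2.39 and −2.78 in Nedd9-null tumours, against −1.66, −0.62, −1.19 and −0.31 in Nedd9-WT tumours (difference −1.37, SE 0.33, limma adjusted p = 0.0923). Every Nedd9-null value of Nos2 lay below every Nedd9-WT value. Without Nedd9-null 1 it passed as the 1 gene of its list (difference −1.501, limma adjusted p = 0.0262), where 8.36% of all genes passed as lower, and the median of the list was −0.15, against −0.11 with all 8 tumours.

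Of the T cell receptor signalling genes, 9 were tested, 0 passed the limma threshold and 7 had an unadjusted p under 0.05, against 23.9% of all genes. Prkcq, protein kinase C theta, was −2.75, −2.61, −2.25 and −3.24 in Nedd9-null tumours, against −3.50, −6.18, −6.70 and −5.05 in Nedd9-WT tumours (difference 2.65, SE 0.66, limma adjusted p = 0.0948). It was higher in every Nedd9-null tumour than in any Nedd9-WT tumour, Nedd9-null 1 included, although it did not pass. Without Nedd9-null 1, 5 of the 9 passed as higher and 2 as lower, against 10.3% and 8.36% of all genes, and Prkcq was among them (difference 2.66, limma adjusted p = 0.0497).

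Early neutrophil granule genes had a median difference of 0.07 over 11 tested, with 0 passing. At an unadjusted p under 0.05 there was 1, against 23.9% of all genes. That gene, Prtn3 or proteinase 3, was −4.88, −3.32, −3.13 and −2.92 in Nedd9-null tumours, against −5.51, −5.81, −5.83 and −5.75 in Nedd9-WT tumours (difference 2.16, SE 0.41, limma adjusted p = 0.0759). All 4 Nedd9-null values were above the Nedd9-WT values, a different order from that of S100a8. Without Nedd9-null 1, Prtn3 (difference 2.60, limma adjusted p = 0.000312) and Ltf, lactotransferrin (6.02, limma adjusted p = 0.00574), passed as higher. They were 2 of 11, where 10.3% of all genes passed as higher, and the median of the list was 0.08. Of mast cell and basophil genes, which share Hdc, 5 of 10 were tested and 0 passed, with a median difference of 0.05. At an unadjusted p under 0.05 there was 1 of the 5, against 23.9% of all genes. That gene, Kit, was 1.42, −1.36, −2.10 and −1.58 in Nedd9-null tumours, against 0.60, 2.48, 0.37 and 1.40 in Nedd9-WT tumours, and was thus low in the 3 tumours where Hdc was high. The list did not share 1 direction, with 3 genes positive and 2 negative. Cpa3, Prss34 and Mcpt4 differed by 0.50, 0.11 and 0.05, and Tpsb2 and Kit by −0.40 and −2.12. Without Nedd9-null 1, Kit passed as lower (difference −2.89, limma adjusted p = 0.00944), the 1 gene of its list to do so, where 8.36% of all genes did. The list median was then −0.57. The lists of T cell state, plasma cells, dendritic cells, monocytes, eosinophils and lymphoid stroma had median differences from −0.13 to 0.41. Of their genes, 0 passed. In each list, 1 to 3 of 4 to 12 tested genes had an unadjusted p under 0.05, against 23.9% of all genes. Without Nedd9-null 1 the medians of these lists ran from −0.29 to 0.15. In that fit 1 gene passed as lower in each of the T cell state, plasma cell and eosinophil lists, and 1 as higher in lymphoid stroma. There was 1 each way in dendritic cells, and 1 as higher and 2 as lower in monocytes. Over all genes, 10.3% passed as higher and 8.36% as lower in the same fit.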

How the data were processed

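Each of 8 one-colour Agilent arrays held Cy3-labelled RNA (500 ng) of 1 tumour. The deposited intensity values came from Agilent Feature Extraction 9.5.3, per the submitters' processing notes, and per the file headers were background-subtracted and detrended but not scaled between arrays. The authors' deposited table of log2 values has a shared median of 8.24, and its background step is not given in the sources used here. Control and outlier spots were left out, spots of a probe were averaged, and log2 signal minus the 75th percentile was used. A probe was kept if well above background on 3 or 4 of the arrays of either genotype (31783 probes), with the brightest probe per gene. The comparison used limma 3.58.1 (R 4.3.3, 2-sided, Benjamini-Hochberg over 25535 genes); files were read by data.table (version 1.17.8). The number of arrays limits the precision. Members and lists were chosen with earlier results of these data known. Values per tumour are given for up to 4 members per lineage with the smallest p, and up to 2 genes per further list; other members were chosen after their values were seen. One gene of a further list is not reported here. Gene names follow the files, updated through RefSeq (GRCm38.p6), and mm9 coordinates are those of the file headers. Alternatives changed the scale, background, filter, probe, weights, block and samples. Same-numbered tumours did not deviate together, so the numbers were used as names.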

Additional observations from a re-analysis of the deposited data

Results flagged for a closer look

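In 12 groups of 4 tumours, of 212 looked at, 1 tumour lay far from the other 3 of its genotype by Dixon's 95% criterion, and chance gives about 1 in 20, or 10.6. Among the markers, Nedd9-null 1 was low for the chemokine receptor gene Cx3cr1 (−0.47, next 1.24), and Nedd9-null 2 was high in the neutrophil median (2.03, next 0.18). Nedd9-WT 2 was low for Cd8a (−7.75, next −6.93), and Nedd9-WT 3 was high for Il7r (−4.10, next −7.05).

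Among the further lists, Nedd9-null 1 was low for the plasma cell gene Sdc1 (0.26, next 1.09), for the dendritic cell gene Batf3 (−3.15, next −1.37) and in the ciliated cell median (1.70, next 6.78). It was high for the dendritic cell gene Zbtb46 (−2.97, next −3.82). Nedd9-WT 1 was high in the ciliated cell median (2.23, next −0.39), Nedd9-WT 2 low for the mast cell gene Tpsb2 (−1.05, next −0.56), Nedd9-WT 3 high for the inhibin subunit gene Inhbb (4.08, next 2.60), and Nedd9-WT 4 high in the endothelial median (0.67, next −0.11). No cause was tested.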

How the results depend on the processing

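Over 18 alternatives, the count of genes past the threshold (17 in the fit reported) was 5984 with array weights, in which Nedd9-null 1 weighed 0.227, 4 with the median as scale, 4 with quantile normalization, 7 of 21968 genes with probes well above background on all 8 arrays, and 0 (4732 at an unadjusted p under 0.05) with the replicate block. Leaving out 1 tumour gave 0 to 4773 genes: 4773 without Nedd9-null 1, 42 without Nedd9-WT 1, 2 without Nedd9-null 4 and 0 in the other 5 cases (3887 to 5409 at an unadjusted p under 0.05). Markers past the threshold numbered 4 with array weights, namely Hdc (4.75), Camp (1.45), Cd14 (2.43, limma adjusted p = 0.0453) and Ms4a7 (1.56, limma adjusted p = 0.0425), and 0 to 2 when 1 tumour was left out, the 2 being Hdc and Camp without Nedd9-null 1; in the other 16 alternatives there were 0, with 1 to 6 at an unadjusted p under 0.05. The replicate block gave 0 calls of a marker, as did the fit reported, which had no call to lose. Deviations of same-numbered tumours were correlated at r of −0.23 to −0.04, which gave no sign that the numbers pair them. So few tumours cannot exclude it.

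Signs turned for 3 named markers that never passed: Cd247 was −0.69 with its dimmest probe (chosen after seeing the data) and −0.0826 with the mean of its probes, Nkg7 was 1.09 and 0.44 in the same settings, and Gzma was −0.0711 in the deposited table, −0.00518 with the median scale and −0.0816 with quantiles. The median scale moved the median of all genes to −0.16. Lineage medians moved by less than the spread between tumours in all 18 alternatives, with ranges of 0.08 to 0.47 (T cells), −0.08 to 0.45 (NK and cytotoxic), 0.02 to 0.67 (B cells), −0.27 to 0.62 (macrophages) and −0.21 to 0.33 (neutrophils), so that the last 2 and the NK list have no settled sign. Where a result changed, the cause was not tested. Of the 52 markers, 9 were not well above background on every array, and their differences rest on dim signal.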
